A study of Mus musculus with 6 samples.

Results

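The genes described here encode the receptor MET, its ligand and the proteins next to them: Hgf, Hgfac, St14, Spint1, Met, Mst1r and Gab1. They are 7 of 19938 genes with a probe set that carries a single gene symbol. The rule keeps the probe set with the highest mean over the 6 arrays, but each of the 7 genes had only 1, so measured values made no choice among probe sets. The 7 genes were brought together with earlier results of these data known, and the set was selected on the difference of Met between the lines, measured on these same 6 arrays. Its p-value and the counts among members are therefore descriptions and no independent support.

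The series compared a tetraploid line of mouse embryonic fibroblasts (line 174, labelled as having abnormal DNA contents and called transformed in the series title) with a diploid line (FW, the normal control). Both were grown in serum-containing medium, and each was measured on 3 whole-transcript Affymetrix arrays. With 1 line for each ploidy, an effect of DNA content cannot be told apart from one of transformation or of the line itself, and no allele or agent is named for either. Separate cultures are not mentioned in the labels, so p-values measure only the spread between these samples, which may be technical.

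Values are log2 signals, on which a difference of 1 is a doubling of signal, and all differences are tetraploid minus diploid. Genes were compared with limma, a linear model fitted across all genes, and called at a Benjamini-Hochberg adjusted p below 0.05. limma called 2758 genes, 13.8% of those tested: 6.08% rose and 7.75% fell in the tetraploid line, and the median difference of all genes was 0.066. With 3 arrays a line, the smallest two-sided p of an exact permutation test is 0.1. Arrays give no counts, and their number limits the precision. The background level of an array was the 95th percentile of 1027 olfactory receptor genes, which are read mainly in the nose. This level was 7.18 to 7.41 in the tetraploid line and 7.01 to 7.26 in the diploid line. Of 17 fibroblast markers, 15 were above background on all 6 arrays, while Fap, a surface protease, and Lum, a matrix proteoglycan, were below it on all 3 tetraploid arrays. Of these markers 6 fell and 0 rose (1 rose at an unadjusted p below 0.05).

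Hepatocyte growth factor (HGF) is made mostly by mesenchymal cells such as fibroblasts and acts on MET, a receptor tyrosine kinase best known from epithelial cells. HGF is secreted as an inactive single chain and must be cut by serine proteases before it can activate MET, which then recruits the docking protein GAB1 and switches on the RAS-ERK and PI3K pathways. The axis drives cell scattering, migration and branching, and a cell that makes both ligand and receptor can stimulate itself.

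Met rose in the tetraploid line, and limma did not call the other 6 genes. Met stood at 11.55, 11.20 and 10.57 on the tetraploid arrays and at 7.98, 8.07 and 8.77 on the diploid arrays. The lines did not overlap: the lowest tetraploid value lay well above the highest diploid one, and Met was above background on every array. The means were 11.10 ± 0.50 in the tetraploid line and 8.27 ± 0.43 in the diploid line (SD, n = 3 each). The difference was 2.83 (95% interval 2.04 to 3.63, 7.12-fold higher, limma adjusted p = 0.00427). Met thus changed by several times its SD within either line, and its call held in each fit without 1 array (adjusted p 0.00672 to 0.0231). Among 8640 genes above background on all 6 arrays, Met had the 5th largest rise, and among all 19938 genes the 60th. In bulk RNA, more cells with a transcript and more of it per cell cannot be told apart.

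**Figure D1:**
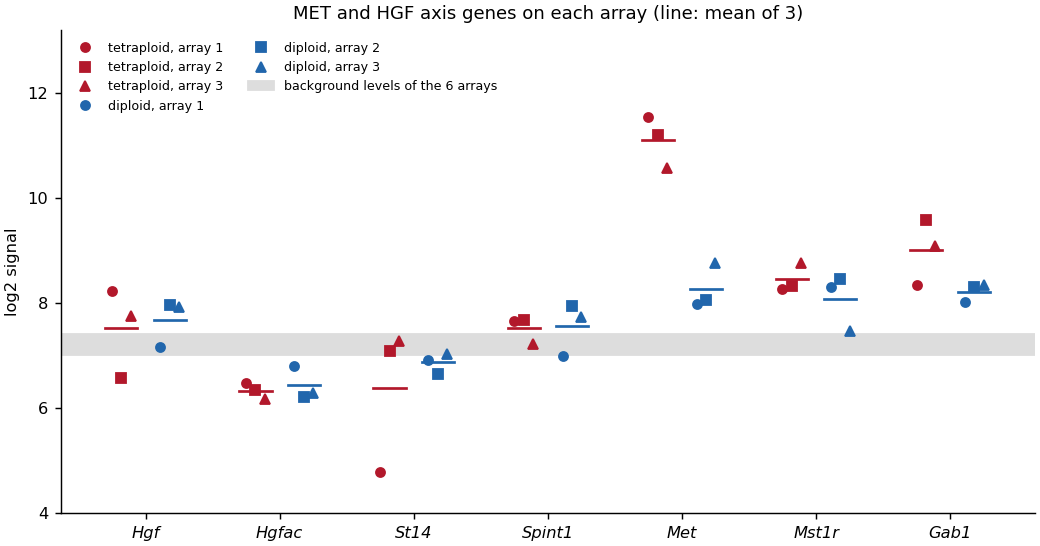
Log2 signal of the 7 genes on each array, tetraploid (red, left) and diploid (blue, right), with a line at each mean of 3 and a grey band over the background levels of the 6 arrays. Met sits at 10.57 to 11.55 in the tetraploid line and at 7.98 to 8.77 in the diploid line, while Hgfac lies below background on every array.

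The promoter of Met is shown because Met is the member that was called, beside that of Mst1r, which encodes RON, the other receptor of the family and the receptor for macrophage-stimulating protein. RefSeq (GRCm38.p6) had promoter entries for 6 of the 7 genes. Each sequence below is the 250 bases before a listed transcript start, on the plus strand, with capitals marking GC boxes (GGGCGG, bound by SP1 and related factors) and AP-1 sites (TGANTCA, bound by FOS and JUN dimers), searched on both strands.
Met, chr6:17463707-17463956: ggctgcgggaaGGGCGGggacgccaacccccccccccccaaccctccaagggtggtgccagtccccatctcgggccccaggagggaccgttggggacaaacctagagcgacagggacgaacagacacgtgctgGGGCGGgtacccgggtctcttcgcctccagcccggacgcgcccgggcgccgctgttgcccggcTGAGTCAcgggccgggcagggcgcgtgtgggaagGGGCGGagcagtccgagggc
Mst1r, first start, chr9:107906639-107906888: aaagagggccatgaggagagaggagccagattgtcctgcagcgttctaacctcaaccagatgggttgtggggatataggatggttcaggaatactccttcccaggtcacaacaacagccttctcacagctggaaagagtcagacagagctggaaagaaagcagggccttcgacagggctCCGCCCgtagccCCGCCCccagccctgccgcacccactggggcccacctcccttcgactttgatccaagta
Mst1r, internal start, chr9:107914753-107915002: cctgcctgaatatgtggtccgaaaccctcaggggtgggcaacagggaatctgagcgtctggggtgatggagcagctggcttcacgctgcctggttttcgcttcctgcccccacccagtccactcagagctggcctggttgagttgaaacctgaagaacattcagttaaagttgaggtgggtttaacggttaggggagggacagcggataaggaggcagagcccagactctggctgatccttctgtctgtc
The Met window held 3 GC boxes and 1 AP-1 site, which overlapped none of them. The first Mst1r window held 2 GC boxes and no AP-1 site, and the internal one held neither. Of 32851 windows of this length in the RefSeq table, 32.7% held at least 1 GC box, 8.47% held 3 or more and 6.75% held an AP-1 site. The ETS motif CCGGAA was in 12.03% of all windows and in none of these 3. G and C made up 74.0% of the Met window, 57.6% of the first Mst1r window and 56.4% of the internal one. The median over all windows was 52.4%. GC boxes did not set Met apart among the members. The Spint1 window also held 3 (72.8% G and C), and each Gab1 window held 2 (70.8% and 70.0%). Neither gene was called. The Hgf and Hgfac windows held no GC box. A match is a string of letters and no evidence of binding.

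Mst1r stood at 8.26, 8.33 and 8.76 on the tetraploid arrays and at 8.31, 8.46 and 7.46 on the diploid arrays. It was above background on all 6, and the lines overlapped, with diploid array 3 alone well below the rest. The difference of 0.37 was not called (95% interval -0.37 to 1.12, limma adjusted p = 0.488), and its interval lies wholly below that of Met. In mice the internal start gives a short form of the receptor known as the Fv2 susceptibility factor for Friend virus, and the single probe set cannot tell the forms apart. Mst1, the ligand of RON, stood at 7.10, 7.23 and 7.05 on the tetraploid arrays and at 6.82, 7.39 and 7.28 on the diploid arrays. Only diploid arrays 2 and 3 were above background.

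The ligand gene Hgf stood at 8.22, 6.56 and 7.76 on the tetraploid arrays and at 7.16, 7.96 and 7.93 on the diploid arrays. Of 3 arrays a line, 2 were above background in each, and the lines overlapped, with tetraploid array 2 and diploid array 1 below background. The difference was -0.17 with a 95% interval of -1.25 to 0.91 (limma adjusted p = 0.851). Without tetraploid array 2 the difference was 0.31 (adjusted p = 0.628). The Hgf signal was thus near background in both lines, with no direction that held. Macrophages can also make HGF and carry RON. The mean log2 signal of 18 macrophage markers was 4.23, 4.53 and 4.39 in the tetraploid line, against 5.04, 6.50 and 7.23 in the diploid line. Their summed linear signal was 860 to 1205 in the tetraploid line and 1081 to 3978 in the diploid line, ranges that overlap. Diploid array 1, at 1081, lay within the tetraploid range, and only diploid arrays 2 and 3 (2352 and 3978) exceeded it. Markers above background numbered 2, 2 and 1 in the tetraploid samples, array by array. For the diploid samples these counts were 2, 5 and 10, so diploid array 1 resembled the tetraploid line. Of the 18 markers 4 fell (Lyz2, Lyz1, C1qa and Mrc1), 0 rose and 14 were not called (0 rose at an unadjusted p below 0.05). That is 22.2% called, beside 13.8% of all genes. None of the 4 that fell was above background on all arrays of either line. Of the 18, 8 were below background on all 6 arrays and 1 was above it on all 6. On at least 1 array 4 of the 18 were at or near a log2 signal of 0, such as Lyz1 and Adgre1 on tetraploid array 1, and such values lower a log2 mean. The part of such cells in the Hgf and Mst1r values was not tested.

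Among the members that cut the ligand or inhibit its proteases, Hgfac, St14 and Spint1, limma called none. Hgfac encodes HGF activator, a serum protease made mainly in liver. It stood at 6.48, 6.34 and 6.17 on the tetraploid arrays and at 6.80, 6.21 and 6.28 on the diploid arrays, all below background, so no fold is given. St14 encodes matriptase, an epithelial membrane protease that activates HGF at the cell surface. It stood at 4.78, 7.09 and 7.27 on the tetraploid arrays, all at or below background, and at 6.92, 6.65 and 7.04 on the diploid arrays, of which only the last was above it. Tetraploid array 1 stood far below the other 5, and without it the difference was 0.31 (limma adjusted p = 0.367) in place of -0.49 (adjusted p = 0.671). Spint1 encodes HAI-1, a Kunitz inhibitor of HGF activator and matriptase. It stood at 7.65, 7.68 and 7.23 on the tetraploid arrays and at 6.995, 7.94 and 7.74 on the diploid arrays, with 2 arrays of each line above background. Its difference was -0.039 (95% interval -0.75 to 0.67, limma adjusted p = 0.951), and its sign turned without tetraploid array 3, diploid array 2 or diploid array 3 (0.11, 0.15 and 0.052).

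Gab1 stood at 8.35, 9.58 and 9.08 on the tetraploid arrays and at 8.01, 8.30 and 8.35 on the diploid arrays. The lines did not overlap, but the lowest tetraploid and the highest diploid value were equal to 2 decimals. Met and Gab1 were 2 of 7 members without overlap, beside 37.3% of all genes. The difference was 0.79 (95% interval 0.0029 to 1.57), and it was not called (unadjusted p = 0.0494, limma adjusted p = 0.169). Without tetraploid array 1 it was 1.11 and called (adjusted p = 0.0425). In all, 1 of 7 members rose and 0 fell, beside 13.8% of all genes called (2 rose and 0 fell at an unadjusted p below 0.05 in the limma fit). The median difference of the 7 was -0.039, and 0.12 with values raised to background. The latter is the value of Hgfac and holds only the background levels of the lines.

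**Figure D2:**
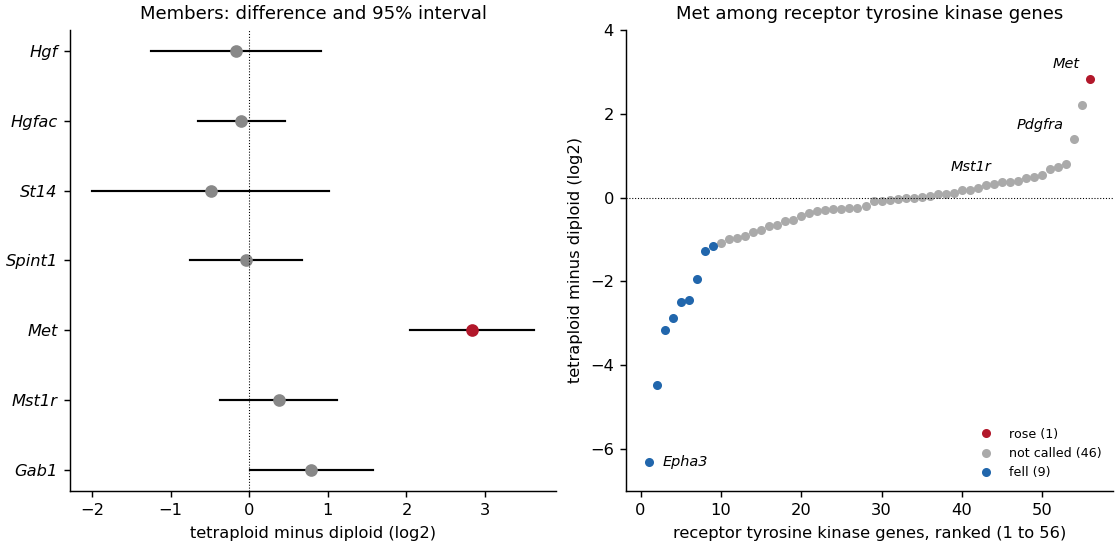
Left, tetraploid minus diploid difference (log2) of each member with its 95% interval from limma, red where called. Right, the differences of 56 receptor tyrosine kinase genes in rank order, red where they rose (1, Met), blue where they fell (9) and grey where not called.

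Met was the only one of the 56 measured receptor tyrosine kinase genes that limma called higher in the tetraploid line. Among the 54 others outside the MET family, 9 fell (16.7%, beside 7.75% of all genes), 0 rose and 45 were not called. At an unadjusted p below 0.05 in the limma fit, 4 had a positive difference. The median difference of the 54 was -0.22, against 0.066 over all genes. With values raised to background it was 0.11, against 0.12 over all genes, and 16 of the 54 were below background on all 6 arrays. In that fit a gene below background on all 6 arrays takes 0.12, the difference between the background levels of the lines. The 0.12 over all genes is this same value, so these 2 medians do not compare expression. The ephrin receptor gene Epha3 stood at 3.90, 3.63 and 4.74 on the tetraploid arrays, below background, and at 10.25, 10.70 and 10.27 on the diploid arrays (at least 8.68-fold lower, limma adjusted p = 2.72e-04). Flt1, which encodes a VEGF receptor, stood at 6.46, 7.52 and 4.36 on the tetraploid arrays, 1 of them above background, and at 10.48, 10.75 and 10.52 on the diploid arrays (adjusted p = 0.0115). Kdr, the gene of the main VEGF receptor, was at least 1.79-fold lower (adjusted p = 0.00270). All 3 were above background on every diploid array, but Kdr only narrowly on diploid array 2 (7.56 against a background of 7.26).

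Next to Met in rank stood 2 genes that were picked after their values were seen. Ephb6, an ephrin receptor gene, had a difference of 2.22 (limma adjusted p = 0.0742) and was above background on 2 arrays. Pdgfra, which encodes a platelet-derived growth factor receptor typical of fibroblasts, stood at 11.91, 10.85 and 11.20 on the tetraploid arrays and at 9.22, 10.29 and 10.28 on the diploid arrays (adjusted p = 0.0619). The lines did not overlap for Pdgfra, and it was called in 3 of the 14 alternative fits, so a statement that Met alone rose rests on the chosen test. Without tetraploid array 1 and without tetraploid array 3, 1 other receptor gene rose (Fgfr2 and Ephb6 in turn). The count that fell was 5 without diploid array 1 or diploid array 2.

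The next question was whether genes beside Met on chromosome 6 differed the same way. Of the 10 measured genes on each side, 2 rose, 3 fell and 15 were not called, and their median difference was -0.031. Over all genes 6.08% rose and 7.75% fell. Cav1, which encodes the coat protein of caveolae and lies next to Met, stood at 12.30, 12.13 and 12.31 on the tetraploid arrays and at 12.70, 12.44 and 12.73 on the diploid arrays (-0.38, 95% interval -0.83 to 0.077). On the other side, Capza2, an actin capping protein gene, stood at 12.30, 12.01 and 11.85 on the tetraploid arrays and at 12.07, 12.005 and 12.04 on the diploid arrays (0.016, 95% interval -0.46 to 0.49). Neither interval reaches that of Met. Cav2, a partner of Cav1, differed by -0.097 and St7 by 0.27, neither called, and Gm4876 and Wnt2 were below background on all 6 arrays. The 3 that fell, Foxp2, Kcnd2 and Tspan12, were below background on every tetraploid array and lie 7, 9 and 10 places away. Raising values to background ended the calls of Foxp2 (adjusted p = 0.503) and Kcnd2 (0.671), and that of Foxp2 was also lost when tetraploid array 3 or 1 diploid array was left out (0.0830 to 0.128). All called neighbours were picked after their values were seen.

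The 8 neighbours above background on all 6 arrays had differences from -0.59 to 1.03. The highest was Lsm8, an RNA-processing gene 7 places away (1.03, limma adjusted p = 0.0269). Its call did not hold when tetraploid array 2 or 1 diploid array was left out (adjusted p 0.0619 to 0.109). Gpr85, an orphan receptor gene 10 places away, also rose (at least 2.40-fold, adjusted p = 0.0307), and its call ended without tetraploid array 1 or 3 or any 1 diploid array (adjusted p 0.0722 to 0.106). The number of neighbours that rose was therefore 0 without any 1 diploid array and 1 without any 1 tetraploid array.

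**Figure D3:**
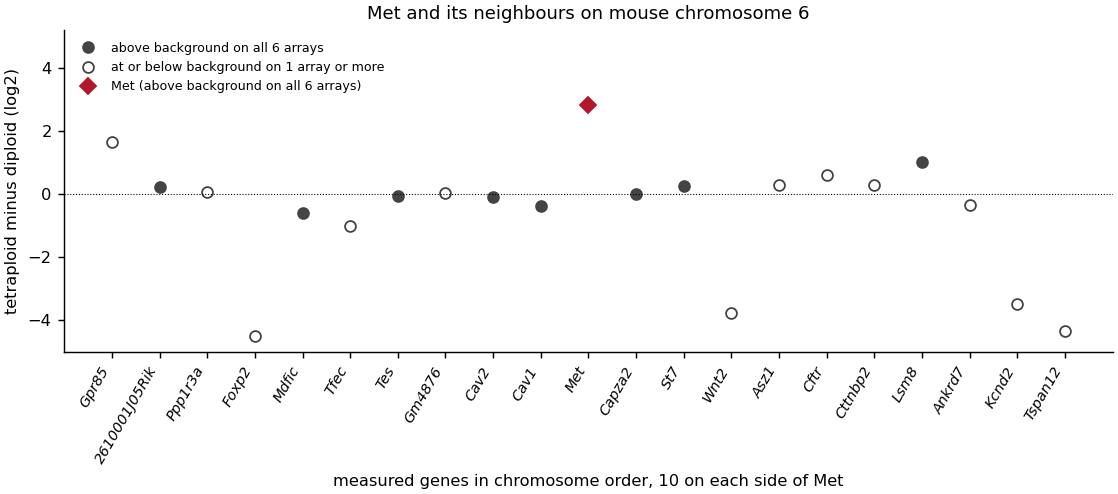
Tetraploid minus diploid difference (log2) of Met (red diamond) and of the 10 measured genes on each side of it, in chromosome order and not to scale; filled circles were above background on all 6 arrays, open ones were not. Met stands at 2.83, and the 8 filled circles lie between -0.59 and 1.03.

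Genes whose pattern over the 6 arrays was most like that of Met were taken from 11215 genes above background on at least 3 arrays. The highest Pearson correlations, 0.998 to 0.999 over 6 arrays, were those of H2bc3, a histone gene, Chaf1b, a chromatin assembly factor gene, Ddx47, an RNA helicase gene, Tfcp2, a transcription factor gene, and Ccdc77. The arrays share 2 lines, so any gene clearly higher in the tetraploid line scores high, and 844 genes reached 0.95. H2bc3 stood at 10.50, 10.40 and 10.17 on the tetraploid arrays and at 9.18, 9.16 and 9.42 on the diploid arrays. As with Met, its lowest tetraploid and its highest diploid value were on array 3. Gab1 correlated with Met at 0.67, Mst1r at 0.25, Spint1 at 0.09 and Hgf at -0.08.

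A list on the supply of the HGF and RON ligands was measured through 16 of 18 genes. It holds other proteases and inhibitors, the ligand gene Mst1 and the proprotein convertase genes Furin and Pcsk5. Since Furin cuts the receptor precursors, the counts are not of ligand supply alone. Of the 16, 3 fell, 0 rose and 13 were not called (0 rose at an unadjusted p below 0.05 in the limma fit). That is 18.75% called, beside 13.8% of all genes. The median difference was -0.014, and 0.12 with values raised to background, the value of a gene below background on all 6 arrays. Plau, which fell, is also among the HGF response genes counted below. Plau, which encodes urokinase, a protease able to cut the HGF precursor, stood at 8.95, 8.33 and 9.53 on the tetraploid arrays and at 11.30, 10.94 and 10.98 on the diploid arrays (4.40-fold lower, adjusted p = 0.00970). Furin, the proprotein convertase that cuts the MET and RON precursors, stood at 9.385, 9.10 and 9.15 on the tetraploid arrays and at 10.65, 10.66 and 10.71 on the diploid arrays (2.75-fold lower, adjusted p = 0.00543). In neither gene did the lines overlap. Pcsk5, another convertase gene, was at least 1.15-fold lower (adjusted p = 7.24e-04), and raising values to background ended its call (adjusted p = 0.463).

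Spint2, which encodes HAI-2, the second inhibitor of matriptase and HGF activator, stood at 2.60, 0.00 and 6.41 on the tetraploid arrays, all below background, and at 7.73, 8.36 and 7.56 on the diploid arrays. Its spread within the tetraploid line was wide and it was not called (limma adjusted p = 0.0669); it was picked after its values were seen.

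Of 21 measured genes for surface proteins that bind or signal with MET, 1 rose, 3 fell and 17 were not called, beside 13.8% of all genes called. Their median difference was -0.67, and -0.25 with values raised to background. Cd82, a tetraspanin gene known as a suppressor of metastasis, stood at 11.39, 11.38 and 11.23 on the tetraploid arrays and at 9.68, 10.06 and 9.71 on the diploid arrays (2.87-fold higher, limma adjusted p = 0.00601). Icam1, an adhesion receptor gene, was at least 2.05-fold lower (adjusted p = 9.53e-04). Itgb1, the integrin beta 1 gene, was 2.26-fold lower (adjusted p = 0.0144), a call that ended without diploid array 1 or 2 (0.0632 and 0.0658). Cd44, whose longest variants hold HGF at the cell surface, was 2.12-fold lower (adjusted p = 0.0444). Its call ended without any 1 array but tetraploid array 1 (0.102 to 0.130). The count that fell was 1 without diploid array 1 or 2.

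Of 31 measured genes that carry the signal from the receptor, 4 fell, 0 rose and 27 were not called (1 rose at an unadjusted p below 0.05 in the limma fit). That is 12.9% called, close to the 13.8% of all genes. The median difference of the 31 was -0.24. Gab2, the relative of Gab1, stood at 5.52, 4.08 and 6.77 on the tetraploid arrays, below background, and at 8.13, 7.86 and 8.06 on the diploid arrays (at least 1.65-fold lower, adjusted p = 0.0380). Map2k1, which encodes the kinase MEK1, was 2.03-fold lower (adjusted p = 0.0408) and the adaptor gene Crk 1.94-fold (adjusted p = 0.0176). None of the 31 was called lower in any fit without 1 diploid array, and 2 were without tetraploid array 2 or 3. Without tetraploid array 1, 1 of them rose. The adaptor genes Grb2 (-0.17) and Shc1 (0.068), which link receptors to RAS, were not called.

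Of 27 measured genes that damp MET signals, 5 fell, 1 rose and 21 were not called, with a median of -0.49. That is 22.2% called, beside 13.8% of all genes. Dusp4, an ERK phosphatase gene, stood at 6.69, 8.08 and 6.88 on the tetraploid arrays, 1 of them above background, and at 10.29, 9.96 and 10.03 on the diploid arrays (limma adjusted p = 0.00601). Spry1 and Spry4, feedback inhibitors of receptor tyrosine kinases, had differences of -1.55 and -1.52 (adjusted p 0.0324 and 0.0265). Of the 3 tetraploid arrays, Spry1 was above background on 2 and Spry4 on 1. With values raised to background their differences were -1.53 and -1.21. Ptpn2, a phosphatase gene whose product can act on MET, was 1.97-fold higher (adjusted p = 0.0250). The calls of Spry1 and Spry4 ended without any 1 diploid array, and that of Spry1 also without tetraploid array 3 and that of Spry4 without tetraploid array 1 or 2 (adjusted p 0.0624 to 0.113 over both genes). That of Ptpn2 was lost when tetraploid array 2 or 1 diploid array was left out (0.0573 to 0.110). The count that fell was 1 without any 1 diploid array and 2 without tetraploid array 2, and the count that rose was 0 without any of these 4.

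No gene of those known to be switched on by HGF was called higher. Of 22 measured, 7 fell, 0 rose and 15 were not called (1 rose at an unadjusted p below 0.05 in the limma fit), beside 7.75% of all genes that fell, and their median difference was -0.70. Tnc, the matrix protein tenascin C, stood at 10.71, 8.53 and 10.16 on the tetraploid arrays and at 12.91, 12.88 and 12.98 on the diploid arrays (8.72-fold lower, adjusted p = 0.0127). Ptgs2, the inducible prostaglandin synthase gene, stood at 9.87, 8.61 and 10.16 on the tetraploid arrays and at 12.78, 12.46 and 12.57 on the diploid arrays (8.32-fold lower, adjusted p = 0.00603). Mmp3, which encodes stromelysin, was at least 1.83-fold lower (adjusted p = 0.00853).

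Fos, the immediate early gene of the AP-1 factor, stood at 7.80, 8.05 and 8.10 on the tetraploid arrays and at 11.03, 11.26 and 10.70 on the diploid arrays (limma adjusted p = 8.95e-04), and was picked after its values were seen. In Tnc, Ptgs2 and Fos every tetraploid array lay below every diploid array, the opposite order to Met. These genes answer to many other signals, and no measure of MET protein or its activity was analysed here.

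**Figure D4:**
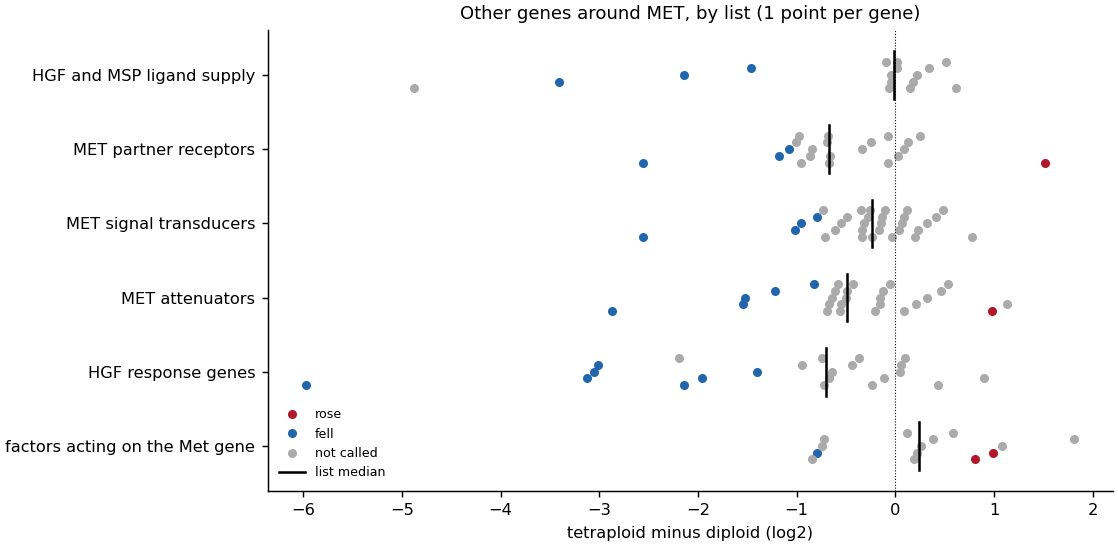
Tetraploid minus diploid difference (log2) of the genes of 6 lists around MET, 1 point per gene, red where it rose, blue where it fell and grey where not called, with a black line at each list's median. The medians run from -0.70 for HGF response genes to 0.24 for factors acting on the Met gene.

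Of 14 measured transcription factors and cofactors reported to act on the Met gene, 2 rose, 1 fell and 11 were not called, with a median difference of 0.24. That is 21.4% called, beside 13.8% of all genes. Sp1, whose product binds GC boxes such as those printed above, stood at 10.00, 10.17 and 10.09 on the tetraploid arrays and at 9.17, 9.26 and 9.41 on the diploid arrays (1.75-fold higher, limma adjusted p = 0.0340). Ets2 stood at 9.48, 9.72 and 9.73 on the tetraploid arrays and at 8.48, 8.49 and 8.98 on the diploid arrays (1.99-fold higher, adjusted p = 0.0310). Yap1, the coactivator of the Hippo pathway, was 1.73-fold lower (adjusted p = 0.0298). The lines did not overlap in Sp1 or Ets2, but the 3 calls were not stable: those of Sp1 and Yap1 ended without any 1 array but tetraploid array 1 (0.0543 to 0.132), and that of Ets2 without tetraploid array 2 or 3 or diploid array 1 or 2 (0.0699 to 0.125). The number of these factors that rose was 0 without tetraploid array 3, diploid array 1 or diploid array 2.

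Since MET, matriptase, HAI-1 and RON are typical of epithelium, epithelial markers were set beside them. Of 22 markers 3 fell (Krt7, Krt18 and Esrp2), 0 rose and 19 were not called (1 rose at an unadjusted p below 0.05 in the limma fit). That is 13.6% called, beside 13.8% of all genes. None of the 3 that fell was above background on all arrays of either line. Of the 22, 11 were below background on all 6 arrays. The mean log2 signal of the 22 markers was 6.36, 6.58 and 6.73 in the tetraploid line, against 6.92, 6.91 and 6.71 in the diploid line. Their summed linear signal was 2638 to 3993 in the tetraploid line and 3083 to 3596 in the diploid line, ranges that overlap. The E-cadherin gene Cdh1 stood at 7.69, 8.68 and 8.59 on the tetraploid arrays and at 8.603, 8.14 and 8.14 on the diploid arrays, above background in both. The adhesion gene Epcam stood at 7.21, 8.03 and 7.68 on the tetraploid arrays and at 6.65, 7.52 and 7.48 on the diploid arrays. No epithelial marker was at a log2 signal of 0.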

How the data were processed

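RNA of 6 samples, 3 per line, was hybridised to Affymetrix whole-transcript mouse arrays after ribosomal RNA was reduced, per the labels' protocols. The authors deposited log2 signals, 1 per probe set and array. The submitters' processing notes name Affymetrix Expression Console. Its algorithm, background correction and normalization are not given in the sources used here. Scale was checked on the values: on a linear scale they were whole hundredths (tolerance 0.001) for 100% of signals below 1000. Array medians differed by 0.0435, so values were used as deposited.

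Of 28944 probe sets, 21789 carried 1 gene symbol in the platform table, 1621 several and 5534 none. Of the first, 21698 matched RefSeq (GRCm38.p6), which gave current names and gene order. The probe set with the highest mean was kept for each of 999 genes with several, which left 19938 genes. The lines were set against each other by limma 3.58.1, run in R 4.3.3 (lmFit and eBayes, two-sided, Benjamini-Hochberg over all genes), a script first tested on simulated data. A gene at or below background on all arrays of 1 line has a fold computed with values raised to background, given as a lower bound. Replicate numbers recur in both lines but pair nothing in the labels, and deviations of same-numbered arrays correlated at 0.100, 0.0309 and -0.0462, so no block was used.

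The members and lists were chosen with earlier results of these data known, and lists are described by counts and medians with no test. Named genes are all members, the 3 measured genes on each side of Met, the 5 genes most like Met, and in each pathway list up to 3 called rises and 3 called falls of largest difference among genes above background on all arrays of 1 line. In marker lists the limit is 2 each way. All other genes named, such as Mst1, Spint2, Grb2, Shc1, Cdh1, Epcam, Fos, Pdgfra, Ephb6, Fgfr2, the called neighbours of Met and further markers, were chosen after their values were seen. Alternatives were leaving out each array, other scalings, a filter on dim genes, a floor at background, the mean of probe sets, another variance prior, array weights and a replicate block.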

Additional observations from a re-analysis of the deposited data

How the results depend on the processing

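The rise of Met kept its direction and its call in all 14 alternative fits, with differences from 2.61 to 3.10 and limma adjusted p from 4.99e-05 to 0.0231. With a replicate block its adjusted p was 0.0196. The number of genes called was 1647 with the replicate block, 839 to 2522 without 1 array, and otherwise 2746 to 4011. Members near background had no stable sign. Without 1 array the difference ran from -0.52 to 0.31 for Hgf and from -0.22 to 0.084 for Hgfac. For St14 it ran from -0.94 to 0.31 and for Spint1 from -0.32 to 0.15. In these fits the difference stayed positive for Gab1 (0.50 to 1.11) and Mst1r (0.067 to 0.57), both above background on all 6 arrays. With values raised to background it was 0.093 for Hgf, 0.12 for Hgfac and 0.12 for St14, and for Hgfac this value holds only the background levels themselves. Of the 54 other receptor tyrosine kinase genes, 0 to 1 rose and 5 to 10 fell without 1 array, 1 rose with only genes above background on at least 3 arrays, 2 rose with trend and robust eBayes, and 4 rose and 14 fell with values raised to background. Of the neighbours of Met, 0 to 1 rose without 1 array and 1 with the replicate block, which changed no member's call. The counts that fell with the filter on dim genes, with values raised to background and with trend and robust eBayes were 9, 8 and 8 of MET partner receptors (3 in the report; 6 with array weights), 7, 8 and 8 of signal transducers (4 in the report; 1 with the block), 8, 11 and 11 of attenuators (5 in the report; 3 with the block) and 10, 12 and 11 of HGF response genes (7 in the report). Of factors acting on the Met gene, 4 rose with values raised to background, 2 fell in each of those fits, and 0 were called with the block. The counts of lists and neighbours under alternatives were added after the data were seen. The cause of these shifts was not tested. The main fit, like those without 1 array, assumes that a gene has the same spread in both lines. The median SD of all genes was 0.345 in the tetraploid line and 0.235 in the diploid line. Signals near background limit Hgf, Hgfac, St14 and Spint1 most.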

Other observations

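The genes around the other members were read in the same way, 10 measured genes on each side, beside 6.08% of all genes that rose and 7.75% that fell. Beside Gab1 on chromosome 8, 2 rose, 0 fell and 18 were not called, with a median difference of 0.26. Beside Spint1 on chromosome 2, 4 rose, 0 fell and 16 were not called, with a median of -0.18. Beside Hgf on chromosome 5, 1 rose, 4 fell and 15 were not called, with a median of -0.69, and beside Hgfac on the same chromosome 1 rose, 4 fell and 15 were not called, with a median of -0.29. St14 and Mst1r both lie on chromosome 9, where 2 rose and 4 fell beside St14 and 1 rose and 1 fell beside Mst1r.

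Markers of hepatocytes, skeletal myoblasts and endothelium were counted too, beside 13.8% of all genes called. Of 7 hepatocyte markers 0 were called (0 at an unadjusted p below 0.05 in the limma fit), and 4 were below background on all 6 arrays. Of 8 skeletal myoblast markers 1 fell: Des, the desmin gene, stood at 3.20, 4.17 and 4.55 on the tetraploid arrays and at 8.47, 9.63 and 8.77 on the diploid arrays (at least 3.17-fold lower, adjusted p = 0.00139). Of 11 endothelium markers 1 rose and 3 fell (36.4% called). Kdr, described above, was among those that fell (at least 1.79-fold lower, limma adjusted p = 0.00270). Its call held in each fit without 1 array. Egfl7 was at least 1.37-fold higher (adjusted p = 0.0256), a call that ended with values raised to background (0.0550) and without tetraploid array 2 or 3 or diploid array 1 or 2 (0.0594 to 0.104).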
